A study of Mus musculus with 6 samples.

Results

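The mitophagy genes were followed in hematopoietic stem cells (HSCs) sorted from mouse bone marrow (BM), with and without IGF1. They are the 10 rows, of 21878 in each deposited table, that carry the symbols Pink1, Bnip3, Bnip3l, Fundc1, Phb2, Fkbp8, Bcl2l13, Pgam5, Mul1 and Usp30. All 10 were measured in every library and all 10 passed the filter on low values. The control group was 3 RNA-seq libraries of wild-type (WT) mice labelled control, which received vehicle. The IGF1 group was 3 libraries of WT mice that were injected once under the skin with recombinant IGF1 at 200 µg/kg, and cells were taken at day 1. The mice were C57BL/6, and no age is given beyond that groups were age-matched. Cells were sorted as Lineage-Sca-1+c-Kit+Flt3-CD34-. The labels disagree on the treatment, because the extraction text speaks of IR (irradiated) mice. The treatment label, the design text and the study's methods name IGF1, so the libraries are called IGF1 here. Nothing in the labels says whether replicates came from separate mice, so every p-value below measures only the spread between these libraries, which may be technical.

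Mitophagy is the removal of mitochondria by autophagy, in which a mitochondrion is marked, enclosed in a double membrane and delivered to the lysosome. The ubiquitin route begins with PINK1, a kinase that builds up on mitochondria that have lost membrane potential and phosphorylates ubiquitin there. The receptor route uses proteins in the mitochondrial membranes that bind the LC3 and GABARAP proteins of the autophagosome directly. HSCs are known for keeping few active mitochondria at rest, and mitophagy is among the processes known to maintain them.

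The largest differences in each direction lay in Bnip3, which was lower in IGF1 libraries, and Pink1, which was higher. Bnip3 is a classical target of the hypoxia-inducible factor HIF-1, and its promoter is shown because that factor's core sites can be read in it, beside the promoter of Pink1 for comparison. Each sequence holds the 250 bases before the RefSeq start of the gene, read 5′ to 3′ on the strand of the gene, in GRCm38.p6. Capitals mark matches to the core ACGTG or GCGTG on either strand, so that CACGT and CACGC are matches on the opposite strand.

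Bnip3: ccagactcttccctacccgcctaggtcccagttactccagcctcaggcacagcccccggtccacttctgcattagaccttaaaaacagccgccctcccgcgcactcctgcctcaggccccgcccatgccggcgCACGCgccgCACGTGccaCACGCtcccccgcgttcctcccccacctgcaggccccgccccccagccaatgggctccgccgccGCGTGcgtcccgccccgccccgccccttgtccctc
Pink1: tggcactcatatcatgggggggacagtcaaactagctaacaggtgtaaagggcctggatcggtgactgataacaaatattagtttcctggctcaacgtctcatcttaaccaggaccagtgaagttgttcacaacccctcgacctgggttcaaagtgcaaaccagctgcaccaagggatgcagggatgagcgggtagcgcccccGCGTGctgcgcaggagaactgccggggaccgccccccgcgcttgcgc

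The Bnip3 window lies at chr7:138909507-138909756 on the minus strand, just before the gene at chr7:138890836-138909506. It held 5 matches to the core, counting both strands, and 2 of them overlap in the palindrome CACGTG, which reads as ACGTG on each strand. Its GC content was 72.4%. The Pink1 window lies at chr4:138326297-138326546 on the minus strand, before the gene at chr4:138313409-138326296, and held 1 match with a GC content of 57.2%. Of 32851 RefSeq windows of the same length, 38.6% held at least 1 match, 1.01% held at least 5, and 6.02% held CACGTG. These windows were not matched to the GC content of the Bnip3 window. Windows were found for 8 of the 10 members, and among the others the number of matches ran from 0 in Fundc1 and Usp30 to 3 in Mul1. The motif GTAAACA, the core bound by FoxO and other forkhead factors, was in 3.17% of all windows and in 0 of the 8. A match describes letters and is no measurement of binding.

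The deposited values were treated as FPKM, a count of fragments divided by gene length and library depth. Such values are meant to be compared between genes. The length implied by the values departed from the longest reference transcript in some members. It was 3173 against 1799 bases for Fkbp8, 3490 against 1983 for Fundc1 and 1374 against 2373 for Phb2. For Pink1, Bnip3, Bcl2l13, Pgam5 and Mul1 it was close. Whole reads could be read back from the steps of the values, and came to 15879352, 11429050 and 15973581 on genes in control replicates 1, 2 and 3, and to 12262616, 11206746 and 12756177 in IGF1 replicates 1, 2 and 3. Control replicate 2 stood apart from its group and nearer to the IGF1 libraries. Against the other control libraries it had 4207 to 4208 genes with a difference over 2-fold, and against IGF1 libraries 887 to 944, whereas control replicates 1 and 3 had 142 between them. Set on a scale from 0% (the other controls) to 100% (the IGF1 mean), its median lay at 80.8% over the 8927 genes with a distance to measure. Its label is therefore in doubt and could not be checked from the files. Summed FPKM was 466619, 635111 and 466135 in control replicates 1, 2 and 3 and 677826 to 680285 in IGF1. Genes above 0 numbered 14422, 13645 and 14434 in these controls and 13861 to 13890 in IGF1. On both measures control replicates 1 and 3 lay together, apart from every other library, and the reason was not tested. Control replicate 2 is kept as a control, as labelled. Every control mean and SD below therefore includes it, and each member is also given without it. As for the labelled cell type, 10 of the 12 genes of the HSC identity list passed the filter. The sort genes Ly6a (219 to 615 FPKM) and Kit (24.2 to 105) and the stem cell genes Procr (11.5 to 18.7) and Hlf (8.88 to 11.8) were well detected, while Slamf1 (0.736 to 2.41), Mecom (0.672 to 4.10), Fgd5 (0.277 to 1.68) and Hoxb5 (0.279 to 0.691) were low. Cd34 (230.2 to 640.0 FPKM) and Flt3 (117 to 188), whose proteins the sort excluded, and the myeloid gene Mpo (1613 to 1705) were abundant. These ranges span both groups. Kit stood at 105, 31.4 and 104 FPKM in control and at 24.6, 24.4 and 24.2 in IGF1. Cd34 stood at 640.0, 265 and 634 in control and at 231, 238 and 230.2 in IGF1. Ly6a stood at 219, 615 and 231 in control and at 385, 387 and 374 in IGF1. Flt3 stood at 117, 172 and 117 in control and at 187, 188 and 183 in IGF1. The markers named here were picked for this check with their values known. In bulk RNA, fewer cells of a type and less RNA per cell cannot be told apart.

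Differences between groups were tested with limma on log2(FPKM + 1) over 10449 genes, a scale that understates the change of low genes. A gene was called where it changed by over 2-fold with a Benjamini-Hochberg adjusted p under 0.05. Of all genes tested, 6.61% were called, 1.98% higher and 4.63% lower in IGF1. Of the 10 members, 0 were called higher and 1 was called lower, Bnip3. At an adjusted p under 0.05 with no limit on the fold, 1 member was higher (Pink1) and 2 were lower (Bnip3 and Fundc1), where 20.4% of all genes passed, 6.26% higher and 14.1% lower. The median log2 fold change of the members was -0.18, beside -0.18 for all genes tested. Without control replicate 2, 0 members were called higher and 3 lower (Bnip3, Fundc1 and Pgam5), against 12.3% and 20.6% of all genes (32.9% in either direction), and 3 were higher and 5 lower at the adjusted p alone, against 34.9% and 53.6%. The p-values without it rest on a small spread between libraries. On the whole reads, the chi-squared per gene is near 1 for read sampling alone. It was 1.52 between control replicates 1 and 3 and 1.69 to 1.89 between IGF1 libraries.

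**Figure D1:**
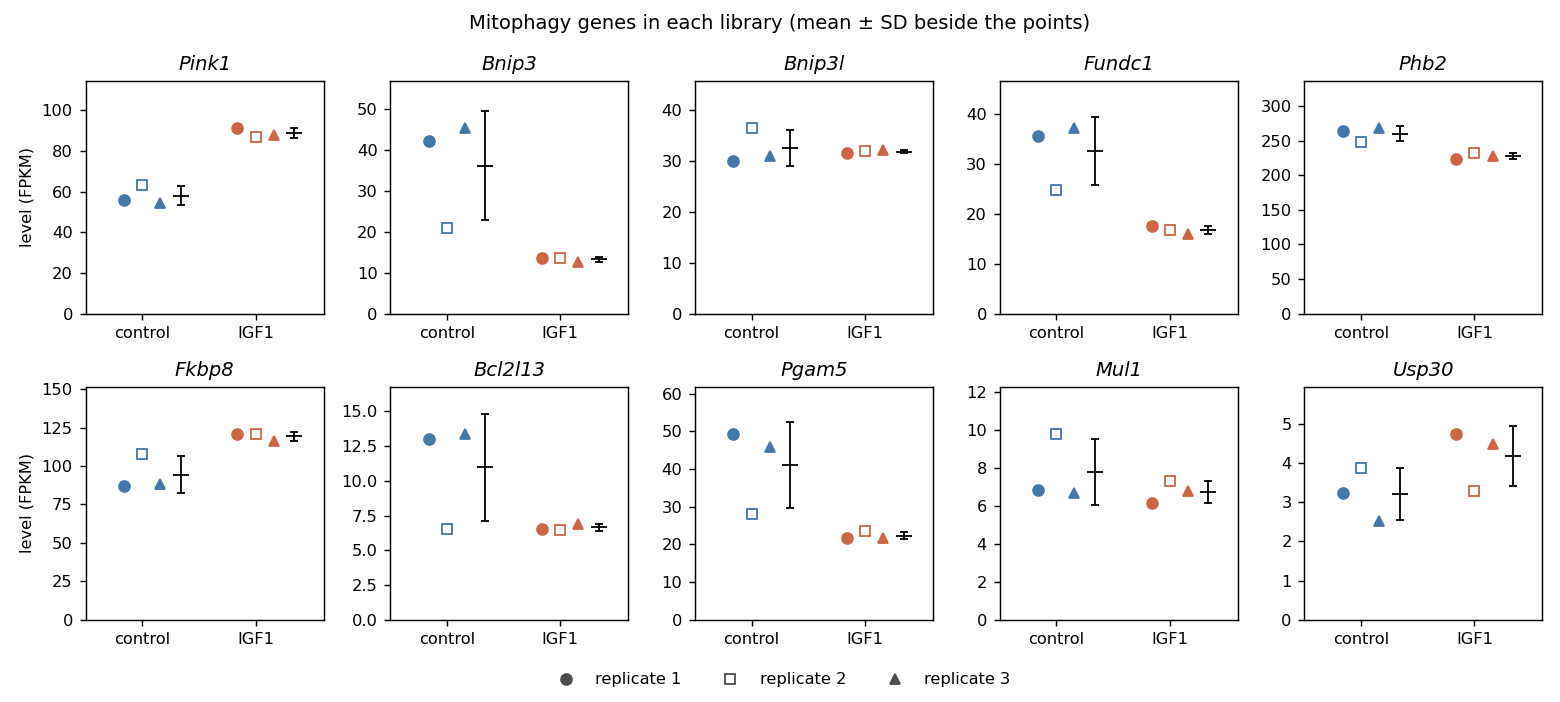
FPKM of the 10 mitophagy genes in each library, with a y axis from 0 for each gene. Points are the libraries of the control (blue) and IGF1 (orange) groups, open squares mark replicate 2, and black bars give the mean and SD of 3 libraries. Control replicate 2 is intermediate for Bnip3 (20.8 FPKM), Fundc1 (24.8) and Pgam5 (28.1), and among the IGF1 libraries for Bcl2l13 (6.56).

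Pink1, which encodes the kinase at the head of the ubiquitin route, stood at 56.0, 63.4 and 54.6 FPKM in control replicates 1, 2 and 3. It stood at 91.5, 87.1 and 87.7 FPKM in IGF1 replicates 1, 2 and 3. The groups did not overlap, and the lowest IGF1 library lay well above the highest control. The mean was 58.0 ± 4.76 FPKM in control and 88.8 ± 2.41 in IGF1 (SD, n = 3 each), 1.53-fold higher. The log2 fold change was 0.61 (SE 0.10, 95% interval 0.36 to 0.86, limma adjusted p = 0.0314). Pink1 thus passed the adjusted p and did not reach the fold of 2, and it no longer passed when any library other than control replicate 2 was left out (limma adjusted p = 0.144 to 0.164). Control replicate 2 was close to its group for this gene, at 29.0% of the way to the IGF1 mean, and without it the log2 fold change was 0.67 (limma adjusted p = 4.5e-08). Under every setting tried its log2 fold change was above 0, from 0.46 to 1.07. With the trends of gene length and GC content removed, its log2 fold change was 0.46 (limma adjusted p = 0.0351).

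Usp30, a deubiquitinase of the outer mitochondrial membrane that removes ubiquitin chains from that membrane, was the lowest member. Its level was 3.23, 3.87 and 2.53 FPKM in the control replicates and 4.75, 3.30 and 4.50 FPKM in the IGF1 replicates. The groups overlapped, since IGF1 replicate 2 lay below control replicate 2. These values rest on 132 to 208 reads per library, the fewest of any member. The log2 fold change of 0.30 (SE 0.18, 95% interval -0.14 to 0.74) did not pass the test (limma adjusted p = 0.204). It was 0.41 without control replicate 2 (95% interval 0.12 to 0.70, limma adjusted p = 0.0126), under the fold of 2. Usp30 overlaps Alkbh2 on the opposite strand, and the transcripts share 331 bases.

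Mul1, a ubiquitin ligase of the outer membrane that acts on mitofusins, lies on chromosome 4 at 108 kb from Pink1 and did not share its difference. It stood at 6.86, 9.81 and 6.70 FPKM in control and at 6.15, 7.30 and 6.81 FPKM in IGF1. The highest value was that of control replicate 2, and the remaining controls lay within the IGF1 range. Its log2 fold change of -0.17 (95% interval -0.59 to 0.26) did not pass the test (limma adjusted p = 0.433) and was -0.01 without control replicate 2 (limma adjusted p = 0.925). Its sign turned under other scalings, to 0.10 with scaling to the 75th percentile.

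Among the receptors, Bnip3 encodes an outer membrane protein that binds LC3 and is induced by hypoxia, and its promoter is the one with 5 core matches above. It stood at 42.1, 20.8 and 45.4 FPKM in control replicates 1, 2 and 3 and at 13.6, 13.7 and 12.6 FPKM in IGF1. The groups did not overlap, but control replicate 2 was the control nearest to the IGF1 libraries, which lay close together. The mean fell from 36.1 ± 13.3 to 13.3 ± 0.571 FPKM (SD, n = 3 each), 2.72-fold lower, and the reads behind it ran from 422 to 1284 in control and from 272 to 295 in IGF1. The log2 fold change was -1.30 (SE 0.30, 95% interval -2.03 to -0.57, limma adjusted p = 0.0425), or -1.12 relative to the median gene. It was -1.65 without control replicate 2 (limma adjusted p = 1.3e-09). The call was lost when any other library was left out (limma adjusted p = 0.148 to 0.164), settings in which 0 of all genes were called, while 2982 to 3205 genes had an unadjusted p under 0.05. With length and GC trends removed the log2 fold change was -0.99 (limma adjusted p = 0.0547). The Bnip3 transcript shares at least 200 bases at 95% identity or more with 5 other annotated genes, none of which has a row in the tables, so the split of reads among these copies is uncertain.

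Bnip3l, also known as NIX, is the close relative of Bnip3 that clears mitochondria from maturing red cells. It stood at 30.1, 36.6 and 31.1 FPKM in control and at 31.5, 31.9 and 32.2 FPKM in IGF1. Control replicate 2 was the highest library, and the other controls lay just under the IGF1 libraries. The log2 fold change was -0.03 (SE 0.11, 95% interval -0.29 to 0.24, limma adjusted p = 0.838). The sign of this small difference depended on the processing, at 0.27 with scaling to the 75th percentile and 0.57 with length and GC trends removed, neither with an adjusted p under 0.05. Leaving out control replicate 2 gave 0.06 as deposited (limma adjusted p = 0.202), 0.45 with scaling to the 75th percentile (limma adjusted p = 2.7e-06) and 0.83 with length and GC trends removed (limma adjusted p = 3.7e-08). A near-identical annotated copy, Bnip3l-ps, shares 663 bases at 99.2% identity with it and has no row.

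Because these relatives share a route, their ratio was taken within each library, which removes any scaling of the whole library. The ratio of Bnip3l to Bnip3 in FPKM was 0.716, 1.76 and 0.685 in control replicates 1, 2 and 3. It was 2.33, 2.33 and 2.55 in IGF1 replicates 1, 2 and 3. Bnip3 was thus the more abundant of the pair in control replicates 1 and 3, and Bnip3l was the more abundant in control replicate 2 and in each IGF1 library. The mean log2 ratio was 1.33 higher in IGF1, a fold of 2.52, with an exact 2-sided permutation p = 0.1, the smallest that 3 libraries against 3 can give, and 1.78 higher without control replicate 2. The ratio of Pink1 to its opponent Usp30 was 17.3, 16.4 and 21.6 in control and 19.3, 26.4 and 19.5 in IGF1. These groups overlapped, and the difference of 0.23 in log2 ratio did not pass the test (exact permutation p = 0.30).

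**Figure D2:**
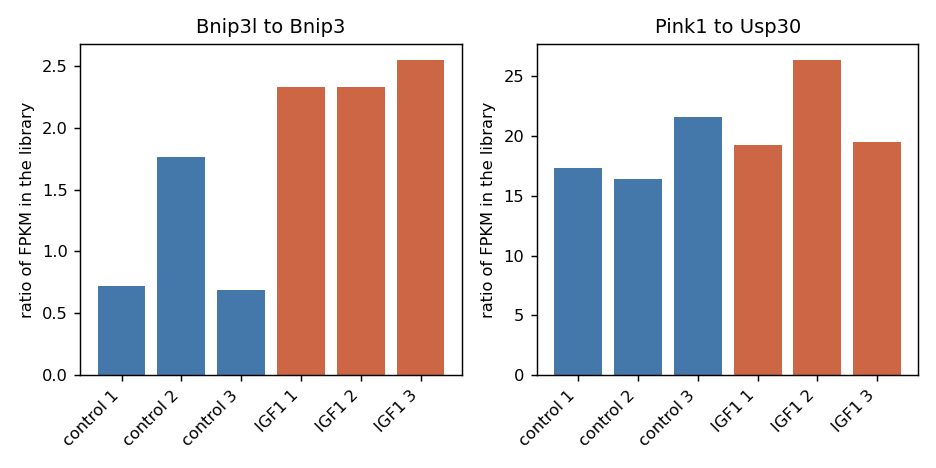
Ratio of FPKM within each library, for Bnip3l to Bnip3 (left) and Pink1 to Usp30 (right), with axes from 0. Bars are single libraries of the control (blue) and IGF1 (orange) groups. The first ratio is 1.76 in control replicate 2 and at least 2.33 in the IGF1 libraries, and the second overlaps between groups.

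Fundc1, an outer membrane receptor of hypoxia-related mitophagy whose LC3 binding is set by phosphorylation, was the member nearest to a call after Bnip3. Its level was 35.5, 24.8 and 37.2 FPKM in control and 17.5, 16.8 and 16.0 FPKM in IGF1. Every IGF1 library lay below every control, and control replicate 2 was about midway at 49.6% of the way. The mean was 32.5 ± 6.71 against 16.8 ± 0.790 FPKM (SD, n = 3 each), 1.94-fold lower, with a log2 fold change of -0.89 (SE 0.17, limma adjusted p = 0.0367). Fundc1 passed the adjusted p and just missed the fold of 2, and without control replicate 2 it was called at -1.07 (limma adjusted p = 2.0e-08). That call depended on the scaling. Without control replicate 2 its log2 fold change was -0.68 with scaling to the 75th percentile and -0.70 with quantile normalization. It was -0.58 with length and GC trends removed, each under the fold of 2, and -1.11 with voom. When any other library was left out it no longer passed (limma adjusted p = 0.147 to 0.164). Its transcript has the lowest GC content of the members, 38.8%, and with length and GC trends removed its log2 fold change was -0.47 (limma adjusted p = 0.0513).

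Pgam5, the mitochondrial phosphatase that dephosphorylates Fundc1, had a difference of like size. It stood at 49.4, 28.1 and 45.8 FPKM in control and at 21.7, 23.5 and 21.8 FPKM in IGF1. The groups did not overlap, and control replicate 2 lay at 70.2% of the way to the IGF1 mean. The log2 fold change of -0.81 (SE 0.22, 95% interval -1.35 to -0.27) missed the threshold (limma adjusted p = 0.0509), and without control replicate 2 it was called at -1.06 (limma adjusted p = 2.3e-08). This call too depended on the scaling. Without control replicate 2 Pgam5 was at -0.66 with scaling to the 75th percentile and -0.73 with quantile normalization. It was at -0.82 with length and GC trends removed, each under the fold of 2, and at -1.09 with voom. An antisense-strand annotation, Gm26718, shares 1074 bases with the Pgam5 transcript and has no row, and whether counting used strand is not stated.

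Bcl2l13, an outer membrane receptor regarded as the mammalian counterpart of yeast Atg32, was split within the control group. It stood at 13.0, 6.56 and 13.4 FPKM in control and at 6.53, 6.50 and 6.93 FPKM in IGF1. Control replicate 2 lay within the IGF1 range, so the groups overlapped, and the log2 fold change of -0.59 (95% interval -1.24 to 0.07) did not pass the test (limma adjusted p = 0.117). Leaving out control replicate 2 gave -0.89 (limma adjusted p = 2.0e-07), under the fold of 2. The gene overlaps Bid on the opposite strand, and the transcripts share 629 bases.

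Fkbp8, an outer membrane receptor of the FK506-binding family, was the most abundant of the outer membrane receptors and overlaps Kxd1 on the opposite strand. It stood at 86.8, 108 and 88.5 FPKM in control and at 121, 121 and 116 FPKM in IGF1. The groups did not overlap, yet the log2 fold change of 0.34 (SE 0.12, 95% interval 0.05 to 0.64) did not pass the test (limma adjusted p = 0.0714). Leaving out control replicate 2 gave 0.44 (limma adjusted p = 7.2e-07). Its transcript has the highest GC content of the members, 63.0%, and with length and GC trends removed the sign turned, to -0.15 (limma adjusted p = 0.125) and to -0.16 without control replicate 2 (limma adjusted p = 0.000805). Its direction therefore depends on that correction.

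Phb2, a prohibitin of the inner membrane that binds LC3 once the outer membrane is broken, was the highest member in every library. It stood at 264, 248 and 269 FPKM in control and at 223, 232 and 228 FPKM in IGF1. The groups did not overlap, but the step between them was small. Its log2 fold change of -0.19 (SE 0.11, 95% interval -0.46 to 0.07, limma adjusted p = 0.179) equalled the shift of the median gene to within 0.01, and depended on the scaling, at 0.11 with scaling to the 75th percentile and -0.52 with quantile normalization (limma adjusted p = 0.0768). Without control replicate 2 it was -0.23 (limma adjusted p = 3.2e-05), 0.18 with scaling to the 75th percentile (limma adjusted p = 0.000151) and -0.73 with quantile normalization (limma adjusted p = 2.4e-08).

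**Figure D3:**
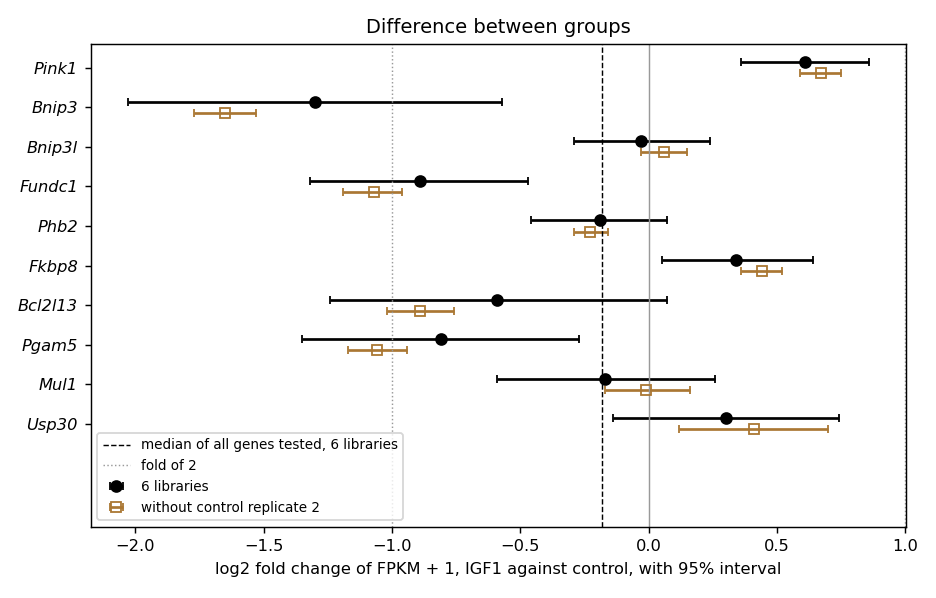
Log2 fold change of FPKM + 1, IGF1 against control, for each mitophagy gene with its 95% interval. Filled circles are all 6 libraries, open squares leave out control replicate 2, the dashed line is the median of all genes tested (-0.18) and dotted lines mark a fold of 2. Pink1 (0.61) lies furthest to the right and Bnip3 (-1.30) furthest to the left.

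In all, 6 of the 10 members had groups that did not overlap, where 59.4% of all genes tested did. Without control replicate 2 that share of all genes was 91.9%, so groups that do not overlap set no gene apart there. The scaling of whole libraries bears on all of these values. The median of all genes moved from -0.18 as deposited to 0.08 with scaling to the 75th percentile, and higher genes made up 30.0% of the calls as deposited and 61.4% with that scaling. They made up 56.4% with median scaling, 48.8% with quantile normalization and 47.8% with length and GC trends removed. Under each of these scalings Pink1 stayed above 0 and Bnip3, Fundc1, Pgam5 and Bcl2l13 stayed below 0.

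The summed level of the 5 outer membrane receptors was 208, 196 and 216 FPKM in control and 191, 189.8 and 183 FPKM in IGF1, so the IGF1 libraries lay below every control by a small margin. That margin holds for the values as deposited and was not checked under other scalings. The makeup of the sum differed more than its size. Fkbp8 held 41.8%, 54.8% and 41.1% of it in control and 63.7%, 63.7% and 63.1% in IGF1. Bnip3 held 20.3%, 10.6% and 21.0% in control and 7.11%, 7.21% and 6.89% in IGF1. Fundc1 went along with Bnip3, from 12.6% to 17.2% in control against 8.71% to 9.20% in IGF1. Control replicate 2 was intermediate for each of these, and for Bnip3l (18.6%) it lay above all. Shares of a sum are tied to each other, and no test was made on them. They rest on the values as deposited, with no correction for length and GC, under which the direction of Fkbp8 turned. The shares also depend on the gene lengths behind the values, which departed from the longest transcript for Fkbp8 and Fundc1.

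**Figure D4:**
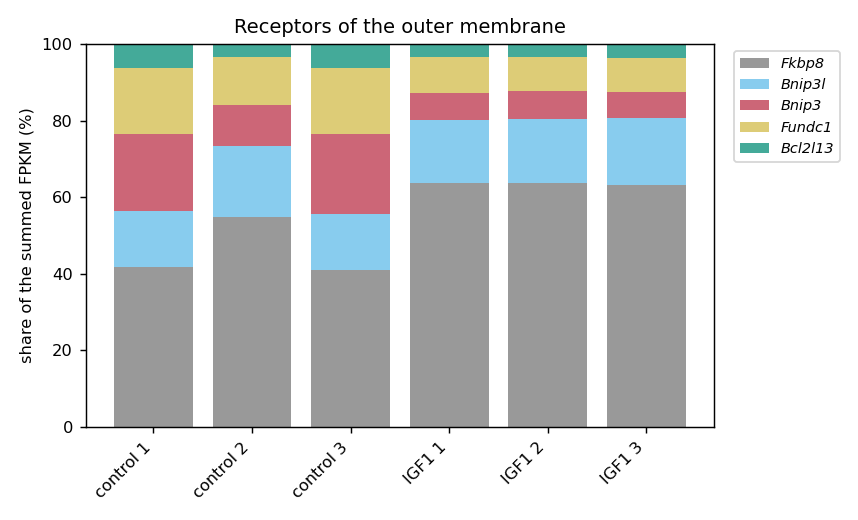
Share of the summed FPKM of 5 outer membrane receptors held by each gene, per library, in percent. Each stacked bar is 1 library and reaches 100%. Fkbp8 takes 41.1% to 54.8% of the sum in control and 63.1% to 63.7% in IGF1, and Bnip3 takes 10.6% to 21.0% and 6.89% to 7.21%.

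The order of the levels in FPKM was Phb2, Fkbp8 and Pink1 at the top of both groups and Usp30 at the bottom. This order depends on the gene lengths behind the values, which departed from the longest transcript for Phb2, Fkbp8 and Fundc1. In control, Pgam5 (41.1 FPKM), Bnip3 (36.1), Bnip3l (32.6) and Fundc1 (32.5) followed Pink1, and no neighbours among these 4 differed beyond their ranges over libraries. In IGF1 the same 4 were ordered Bnip3l (31.9 FPKM), Pgam5 (22.4), Fundc1 (16.8) and Bnip3 (13.3), with ranges that did not overlap. Bcl2l13 and Mul1 came next in both groups, at 11.0 and 7.79 FPKM in control and 6.65 and 6.75 in IGF1, and their ranges overlapped in each group.

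The genes most like Pink1 across the 6 libraries, by Pearson r of log2(FPKM + 1) over all genes tested, were Zfp444 (r = 0.9993), LOC105244150 (r = 0.9988) and Grn (r = 0.9986). Those most like Bnip3l were Tmbim4 (r = 0.9942), D930015E06Rik (r = 0.9942) and Ptrh2 (r = 0.9941). These are descriptions over libraries that fall into 2 groups with 1 library apart, and the genes share the scaling of each library. Grn, the gene of the lysosomal protein progranulin, stood at 83.4 to 90.9 FPKM in control and 107 to 109.6 in IGF1.

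Another 53 genes of the mitophagy pathway were listed, of which 52 have a row and 49 could be tested. Of these 49, 0 were called higher and 2 lower, beside 1.98% and 4.63% of all genes tested. At the adjusted p alone 0 were higher and 7 lower, beside 6.26% and 14.1%. Both numbers of lower genes are near those shares. Their median log2 fold change was -0.45 beside -0.18 for all genes tested, with 15 above 0 and 34 below, and it was -0.16 with scaling to the 75th percentile, beside 0.08 for all genes. In 32 of the 49 the groups did not overlap, beside 59.4% of all genes. Without control replicate 2, 3 were called higher and 15 lower, beside 12.3% and 20.6%.

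The called genes were Rnf185, a membrane-bound ubiquitin ligase, and Rab7, the GTPase of late endosomes that directs autophagosomes to the lysosome. Rnf185 stood at 9.11, 5.58 and 10.2 FPKM in control and at 3.54, 2.87 and 3.01 FPKM in IGF1, with a log2 fold change of -1.14 (limma adjusted p = 0.0369). Rab7 stood at 155, 89.3 and 153 FPKM in control and at 61.4, 62.5 and 62.4 FPKM in IGF1, with a log2 fold change of -1.04 (limma adjusted p = 0.0412). As for Bnip3, control replicate 2 had an intermediate level in both genes, and both calls were lost when any other library was left out.

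In the roles with no call, 1 gene each was named by the smallest adjusted p. For the handling of PINK1 it was Pmpcb, a subunit of the peptidase that cleaves mitochondrial presequences, that of PINK1 among them. Pmpcb stood at 58.5, 58.5 and 59.2 FPKM in control and at 42.9, 42.0 and 43.3 FPKM in IGF1, and here control replicate 2 lay with its group. Its log2 fold change was -0.45 (limma adjusted p = 0.0363), and 0.10 with length and GC trends removed, so that its direction turned. For the ubiquitin-binding receptors it was Sqstm1, encoding p62, at 99.6 FPKM or more in control and 77.4 or less in IGF1, a log2 fold change of -0.49 (limma adjusted p = 0.0369). For the regulators of the receptors it was Rheb, the GTPase that activates mTORC1, at 115 to 126 FPKM in control and 80.2 to 87.3 in IGF1, a log2 fold change of -0.52 (limma adjusted p = 0.0363) that was 0.01 with length and GC trends removed. For the ubiquitinated substrates it was Vdac1, the porin of the outer membrane, with a log2 fold change of -0.52 that missed the threshold (limma adjusted p = 0.0514).

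Hif1a and Foxo3 fall outside that rule and were picked after their values were seen. Hif1a, the gene of the factor that induces Bnip3 under hypoxia, stood at 20.9, 5.38 and 19.5 FPKM in control and at 4.21, 4.87 and 4.47 FPKM in IGF1. Its groups did not overlap, control replicate 2 lay next to the IGF1 libraries, and the log2 fold change of -1.37 did not pass the test (limma adjusted p = 0.0720), while without control replicate 2 it was called at -1.94 (limma adjusted p = 2.1e-09). Foxo3, the gene of a forkhead factor of the same role in the list, lay the other way, at 3.78, 7.15 and 3.52 FPKM in control and 8.29, 7.66 and 7.77 FPKM in IGF1. Its log2 fold change of 0.67 did not pass the test either (limma adjusted p = 0.0762) and was 0.94 without control replicate 2 (limma adjusted p = 3.6e-07), under the fold of 2.

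**Figure D5:**
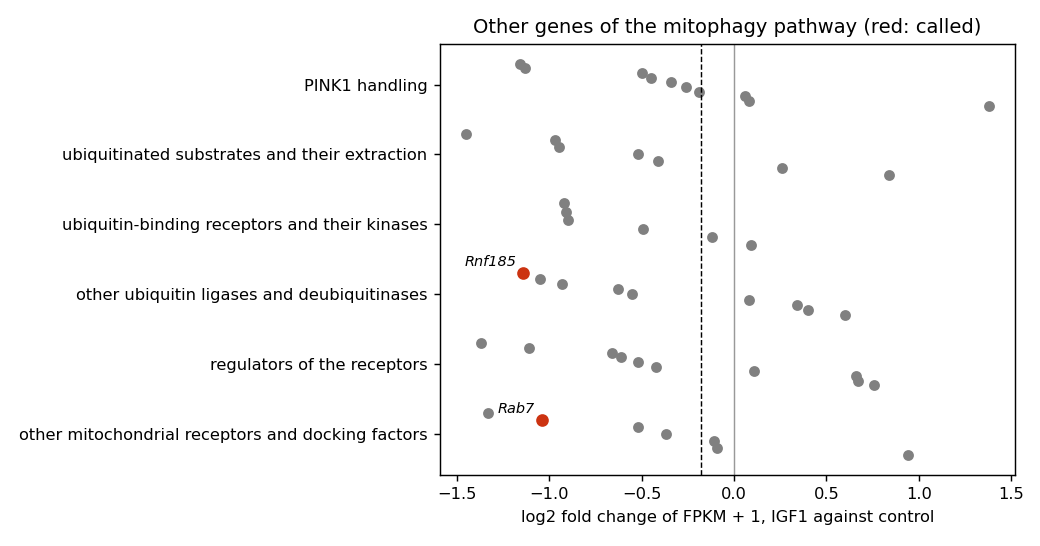
Log2 fold change of FPKM + 1, IGF1 against control in all 6 libraries, for 49 other genes of the mitophagy pathway, by role. Each point is 1 gene, red points are called, the solid line is 0 and the dashed line is the median of all genes tested (-0.18). The called genes are Rnf185 (-1.14) and Rab7 (-1.04), and 34 of the 49 points lie below 0.

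Calls in the marker lists stand beside 1.98% called higher and 4.63% called lower over all genes tested. The summed levels set control replicate 2 apart from the other controls in several lists. Of the genes of neutrophils and monocytes, 4 of 10 tested were called lower in IGF1 and 0 higher, so lower calls exceeded the share over all genes. Their summed level was 2709 to 2822 FPKM in control and 2785 to 2799 in IGF1. The most abundant genes dominate such a sum, and Mpo alone stood at 1613 to 1705 FPKM. The neutrophil gene Ngp stood at 79.0, 11.5 and 78.2 FPKM in control and at 2.22, 3.73 and 3.47 in IGF1. The B cell list, with 0 of 6 called, summed to 111 to 423 FPKM in control, the 423 being control replicate 2, and to 391 to 407 in IGF1. The T and NK cell list behaved alike, with 0 of 4 called and sums of 363 to 789 in control (control replicate 2 at 789) and 774 to 794 in IGF1. The list of HSC identity had 0 of 10 called and sums of 534 to 745 in control (control replicate 2 at 745) and 491 to 507 in IGF1. The megakaryocyte list had 1 of 6 called higher, and the erythroid (8 tested) and stromal (2 tested) lists had 0 called. The part of these markers in the values of the mitophagy genes was not tested.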

How the data were processed

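The authors sorted HSCs, prepared stranded mRNA libraries, trimmed reads with fastp and deposited 1 value per gene symbol and library. The study names RSEM for quantification. The submitters' processing notes name HISAT2, StringTie and the builds GRCm38 and mm10. The unit is not stated, and the deposited values were taken as FPKM because within a gene they rise in whole steps that shrink with gene length (rank correlation 0.80 of implied and reference length, 14582 genes). Steps gave whole reads, to within 0.002 reads, for 14838 of 14838 genes above 0 in at least 2 libraries, against 6.73% of 4000 jittered rows. The scale of the total depth is approximate. No count model was the main test, because the unit is not a count. A count test on the recovered reads was run as an alternative with voom, which called 382 genes higher and 680 lower.

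The 10449 genes that reached 1 FPKM in 3 or more libraries were fitted on log2(FPKM + 1) with limma 3.58.1 (lmFit, eBayes with a trend) in R 4.3.3, and called at a fold change over 2 and an adjusted p under 0.05. Exact permutation tests used scipy 1.17.1. Promoters came from RefSeq windows (GRCm38.p6) and near-identical copies from blastn on reference transcripts. Alternatives changed the scaling, pseudocount, filter, variance trend, library weights and libraries, and the added ones (voom on the recovered reads, control replicates 1 and 3 as 1 sample, and scalings without control replicate 2) were chosen after seeing the data. Members, lists and tests were chosen with earlier results of these data known. Named genes are the 10 members, each called pathway gene or otherwise the smallest adjusted p of its role, and the 3 genes most correlated with Pink1 and with Bnip3l. Hif1a, Foxo3 and the marker genes named singly are outside this rule, and they were picked with their values known. March5 has no row under that symbol.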

Additional observations from a re-analysis of the deposited data

How the results depend on the processing

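The comparison rests on 3 libraries against 3 with control replicate 2 apart, and the depth behind Usp30 (132 to 208 reads) limits that gene most. Bnip3 kept its direction in all 23 alternatives and lost its call in 8, while the log2 fold changes of Pink1, Fundc1, Bcl2l13, Pgam5 and Usp30 kept their direction in every alternative run. Of genes called higher and lower, leaving out 1 library gave 0 to 1281 and 0 to 2157 over all genes, 0 to 0 and 0 to 3 among the mitophagy genes, and 0 to 3 and 0 to 15 in the pathway list. The upper values are those without control replicate 2 and the lower those without any other library. In these settings the difference between groups, IGF1 minus control, was 1.10 to 1.78 in the log2 ratio of Bnip3l to Bnip3 and 0.08 to 0.35 in that of Pink1 to Usp30.

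Same-numbered libraries were not paired, since the labels do not say that a number marks a shared animal, day or batch. The deviations of replicates 1, 2 and 3 correlated at -0.06, -0.05 and 0.01. These values cannot decide on a pairing, because control replicate 2 dominates the deviations within the control group. With the replicate block, 0 genes were called over all genes, among the mitophagy genes and in the pathway list, with 4791 genes at an unadjusted p under 0.05, and the log2 fold change of Bnip3 was -1.30, with a limma adjusted p = 0.0851 for Bnip3 and likewise for Pink1 and Fundc1. With control replicates 1 and 3 as 1 sample, 0 genes were called in all 3 lists, with 2998 genes at an unadjusted p under 0.05.

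Over all genes, called higher and lower were 333 and 209 with scaling to the 75th percentile, 300 and 232 with median scaling, 304 and 319 with quantile normalization, 153 and 167 with length and GC trends removed, 1276 and 2159 with library weights, 109 and 265 with no filter, 66 and 157 with a pseudocount of 5, and 382 and 680 with voom on recovered reads. The library weights gave control replicate 2 a weight of 0.0137, against 1.90 to 3.64 for the other libraries, so that setting nearly leaves it out. Without control replicate 2, called higher and lower were 2005 and 1107 with scaling to the 75th percentile, 1471 and 1428 with quantile normalization, 1070 and 1042 with length and GC trends removed, and 1682 and 2637 with voom.

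Among the mitophagy genes, called lower were 0 with length and GC trends removed, 3 with library weights and 3 with voom without control replicate 2. Without control replicate 2, called lower was only 1, Bnip3, with scaling to the 75th percentile, with quantile normalization and with length and GC trends removed. Called higher was 1 (Pink1, 1.07) with scaling to the 75th percentile without control replicate 2. In the pathway list, called lower were 0 with scaling to the 75th percentile, with median scaling, with a pseudocount of 5 and with length and GC trends removed, 1 with quantile normalization and 15 with library weights, the last also calling 4 higher. Without control replicate 2 the list had 7 higher and 10 lower with scaling to the 75th percentile, 7 and 13 with quantile normalization, 2 and 7 with length and GC trends removed, and 6 and 17 with voom.

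Signs turned for 4 members. Bnip3l was at 0.27 with scaling to the 75th percentile, 0.25 with median scaling, 0.24 with quantile normalization, 0.57 with length and GC trends removed and 0.06 with library weights. Leaving out 1 library gave -0.08 to 0.06, and without control replicate 2 it was at 0.06 (also with voom), 0.45 (75th percentile), 0.42 (quantile) and 0.83 (length and GC). Mul1 was at 0.10, 0.08 and 0.07 with 75th percentile, median and quantile scaling, and without control replicate 2 at 0.35 (75th percentile), 0.33 (quantile) and 0.10 (length and GC). Phb2 was at 0.11 and 0.09 with 75th percentile and median scaling and at 0.18 with the former without control replicate 2. Fkbp8 was at -0.15 with length and GC trends removed and -0.16 without control replicate 2. The causes were not tested.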
